A study of Mus musculus with 11 samples.

Results

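The rapamycin effect in the tamoxifen-injured mouse stomach was read from 4 whole-stomach arrays, 2 from mice given rapamycin plus tamoxifen and 2 from mice given tamoxifen alone. They are 4 of the 11 arrays of the series, and each was compared over the same 22180 genes. All mice were adult C57Bl/6, and every agent went in as a daily injection into the peritoneum. Tamoxifen was dosed for 3 days, with 5 mg for each 20 g of body weight. The combination group received that course together with 10 days of rapamycin, 0.6 mg for each 20 g. A further 5 arrays gave the same drug without tamoxifen: rapamycin alone (n = 3, same dose and duration) against the sunflower oil vehicle (n = 2). The sources used here do not say whether the tamoxifen and vehicle mice also received the solvent of rapamycin. The labels call the arrays biological replicates but do not tie each to 1 mouse, so the p-values measure only the spread between these samples.

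Rapamycin binds the small protein FKBP12, and the pair blocks mTORC1, a kinase complex that drives protein, lipid and nucleotide synthesis when nutrients and growth signals are present. High-dose tamoxifen is toxic to the acid-secreting parietal cells of the stomach, and within days zymogenic chief cells lose their secretory state, acquire mucous neck features and re-enter the cell cycle. In this change, called spasmolytic polypeptide-expressing metaplasia, mTORC1 activity is known for its role in the step at which the dedifferentiated cells start to divide. The comparison therefore asks what rapamycin alters in the stomach while that response is under way.

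The injury itself was visible against vehicle, in a comparison that uses the same 2 tamoxifen arrays. There, 381 genes passed limma's Benjamini-Hochberg adjusted p under 0.05, among them lower Cblif, the intrinsic factor made by mouse chief cells (log2 difference -1.60, adjusted p = 0.00205), and lower Slc26a7, a parietal-cell anion channel (-2.75, adjusted p = 0.00205). The markers of the labelled tissue were strong in all 4 arrays of the comparison, with the proton pump subunit Atp4a at a log2 level of 12.22 and 12.86 under tamoxifen and 12.20 and 12.53 under the combination.

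Among the 4 arrays of the comparison, 1 stood apart before any treatment effect was read. The mean log2 level of 17 genes of squamous epithelium, the keratinised lining of the mouse forestomach, was 9.36 in tamoxifen 1 but 4.80 in tamoxifen 2, against 8.73 and 8.89 in the combination arrays. Without tamoxifen it was 5.16 and 4.76 under vehicle and 9.42, 8.18 and 5.33 under rapamycin. Over all genes tamoxifen 2 correlated better with vehicle 2 (Pearson r = 0.988) than with tamoxifen 1 (0.971), whereas tamoxifen 1 correlated with each combination array at 0.992. Sprr3, a cornified-envelope gene, read 9.97 in tamoxifen 1 and 2.43 in tamoxifen 2, so that its difference between combination and tamoxifen was 3.03 with both and -0.74 without tamoxifen 2. The median difference of the 17 genes was 1.57 (combination minus tamoxifen), 4.15 without tamoxifen 1 and -0.41 without tamoxifen 2. The part of this tissue difference in the other results was not tested. The median of each list described below is therefore also given without tamoxifen 2. A single gene's difference is also given without an array where leaving out that tamoxifen array turned its sign. In whole tissue, fewer cells of a type and less RNA per cell cannot be told apart.

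No gene passed the test between the combination and tamoxifen. With limma's test, 0 of 22180 genes (0%) passed an adjusted p under 0.05, and the smallest adjusted p was 0.423, for Klk1. At an unadjusted p under 0.05 there were 1257 genes (5.67%), 709 without tamoxifen 2 and 3782 without tamoxifen 1. Genes at that p whose 2 groups also did not overlap are called nominal here: 521 genes (2.35%) were nominally higher and 731 (3.3%) nominally lower in the combination. Every count of nominal list members below is to be read beside these 2 shares. The median difference over all genes was -0.02 on the log2 scale, and the median standard error of a difference was 0.19. A difference of more than 2-fold was seen for 148 genes, of which 56 showed no overlap between groups. All differences below are therefore described by their values, and none passed the test in the full set of arrays.

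The nominal genes could be set against rapamycin without tamoxifen, since the 2 comparisons share no array. Of the 521 nominally higher genes, 416 (79.8%) also stood higher under rapamycin than under vehicle. Of the 731 nominally lower genes, 584 (79.9%) also stood lower. The same sign was found for 15084 of all 22180 genes (68.0%). Requiring in addition an unadjusted p under 0.05 in the arrays without tamoxifen left 106 of the higher genes (20.3%) and 173 of the lower ones (23.7%), beside 1581 of all genes (7.13%). Pearson r between the 2 sets of differences across genes, which are not independent replicates, was 0.60 (Spearman rho 0.50). That relation rested on tamoxifen 2: r was -0.01 without it and 0.70 without tamoxifen 1. When tamoxifen 2, rapamycin 1 and rapamycin 2 were all left out, so that forestomach markers were high in both or low in both groups of each comparison, r was 0.08 and the same-sign share 52.4%.

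**Figure D1:**
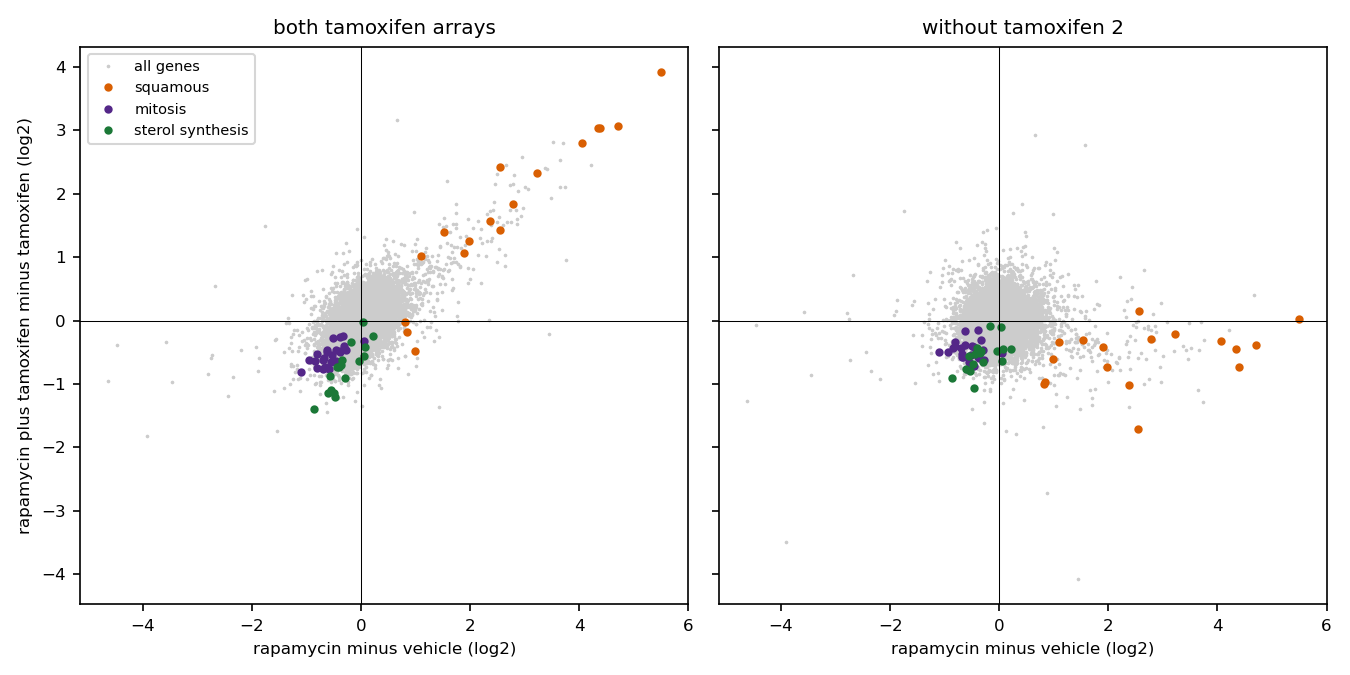
Each grey point is a gene, placed by its log2 difference between rapamycin and vehicle (x axis) and between rapamycin plus tamoxifen and tamoxifen (y axis), with both tamoxifen arrays on the left and without tamoxifen 2 on the right. Squamous genes (orange) lie along the diagonal on the left, with a median y value of 1.57, and at or below 0 for most on the right, with a median of -0.41, while mitosis genes (purple) and sterol synthesis genes (green) stay below 0 on the y axis in both panels.

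Genes of mitosis stood lower together. All 24 measured genes of a 25-gene list stood lower in the combination than under tamoxifen, 23 of them without overlap between groups (20.3% of all genes) and 19 of them nominally lower (3.3% of all genes). Their median difference was -0.54, and it was -0.49 without tamoxifen 2, the tamoxifen array low in forestomach signal. With each of the 9 arrays left out in turn it stayed between -0.62 and -0.49. The same genes had a median of -0.57 for rapamycin against vehicle, measured on other arrays, where 21 of the 24 had an unadjusted p under 0.05 on the lower side (4.6% of all genes) and 0 on the higher side (4.31% of all genes). The count of list members that passed the adjusted test was 0 in both comparisons.

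Ube2c, the ubiquitin-conjugating enzyme with which the anaphase-promoting complex destroys cyclins, read 8.97 and 8.98 under tamoxifen and 8.28 and 8.35 under the combination. It read 7.86 and 7.81 under vehicle and 7.36, 7.10 and 7.39 under rapamycin alone. The combination therefore lay below tamoxifen without overlap (-0.66 ± 0.14, limma standard error, adjusted p = 0.781) but above both groups that received no tamoxifen. Kif20a, a kinesin of the cleavage furrow, read 7.98 and 8.34 under tamoxifen, 7.48 and 7.31 under the combination, 7.24 and 7.32 under vehicle, and 6.66, 6.59 and 6.52 under rapamycin. The combination arrays lay below both tamoxifen arrays and above the rapamycin arrays, but 1 of them lay below vehicle 2. The difference of Kif20a between combination and tamoxifen was -0.76 ± 0.16 (adjusted p = 0.781). Mki67, which encodes the proliferation marker Ki-67, had the largest difference of the list at -0.82 ± 0.28, with 9.81 and 10.46 under tamoxifen against 9.48 and 9.16 under the combination. The 2 tamoxifen arrays were thus further apart for Mki67 than for Ube2c.

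The other members covered the spindle, the checkpoint and the cyclins. The cytokinesis genes Ect2 (-0.77), Kif23 (-0.74) and Prc1 (-0.73) followed Mki67 in size. Top2a, the topoisomerase that untangles replicated chromosomes, read 8.79 and 9.21 under tamoxifen and 8.48 and 8.25 under the combination (-0.64 ± 0.19). Cyclin A2 (Ccna2) stood at 9.35 and 9.45 against 8.79 and 8.84 (-0.58 ± 0.13), and the checkpoint kinase Bub1b at 7.29 in both tamoxifen arrays against 6.81 and 6.67 (-0.55 ± 0.14). Neither group overlapped the other for these 3 genes. The smallest differences of the list belonged to Aurkb (-0.24), Nusap1 (-0.26), Ccnb2 (-0.28) and Foxm1 (-0.32), the last a transcription factor for mitotic genes. Ccnb1, the other B-type cyclin on the list, was not analysed here.

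Most of this list rose with tamoxifen in the same arrays that serve as the reference here. Against vehicle, 17 of the 24 genes passed the adjusted test as higher, with a median of 1.01 over the list. Of all 22180 genes, 381 passed there in either direction. The mean log2 level over the 24 genes was 7.33 and 7.31 under vehicle, 8.26 and 8.39 under tamoxifen, 7.85 and 7.72 under the combination, and 6.83, 6.73 and 6.71 under rapamycin. Because the tamoxifen arrays enter both comparisons, the 2 sets of differences are only placed side by side. No mitosis gene was called in the interaction, the test of whether rapamycin's difference depends on tamoxifen, where 0 genes (0%) of all tested passed.

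**Figure D2:**
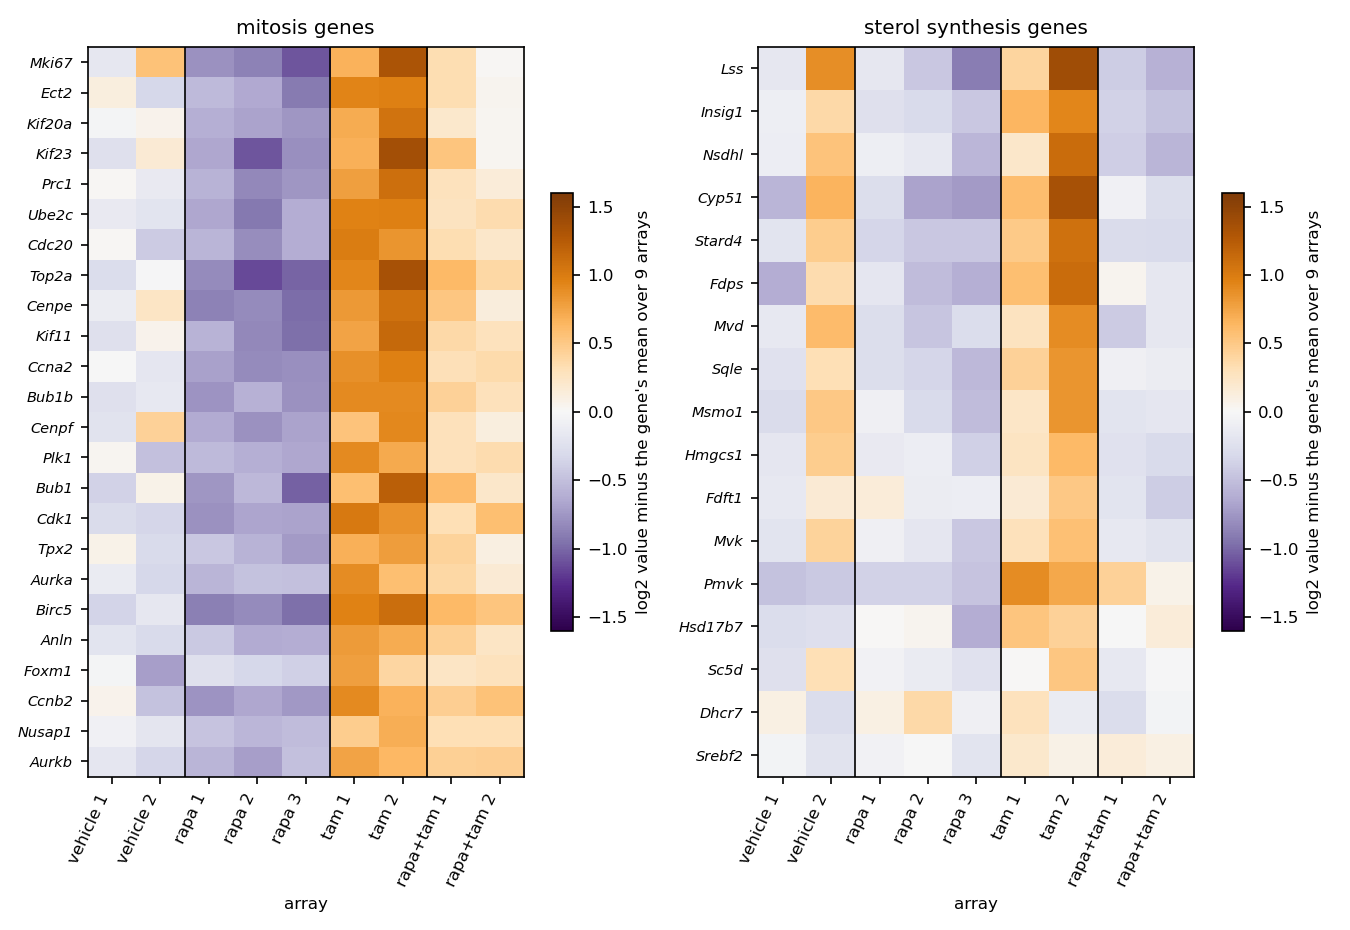
Log2 value of each measured gene minus its mean over the 9 whole-stomach arrays, with mitosis genes on the left and sterol synthesis genes on the right, sorted by the difference between combination and tamoxifen, and arrays grouped by treatment (vehicle, rapamycin, tamoxifen, rapamycin plus tamoxifen). Averaged over the list, the mitosis genes are highest in the tamoxifen arrays (8.26 and 8.39), next in the combination (7.85 and 7.72) and lowest under rapamycin (6.71 to 6.83), an order that single genes such as Bub1 and Foxm1 do not keep in every array, while most sterol genes are highest in tamoxifen 2 and higher in vehicle 2 than in vehicle 1.

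Promoters of this list are shown because its members stood lower together. Mitotic genes are known to share a cell cycle homology region (CHR) and CCAAT boxes upstream of their start sites. In the 250 bases upstream of the RefSeq start (build GRCm38.p6), a CHR was sought as TTTGAA or TTCGAA on either strand. A gene was counted if any of its windows held the motif, and its first window is printed. A CHR was present in 10 of the 19 list genes with a promoter sequence (52.6%), against 19.6% of 27025 genes. CCAAT on either strand was present in 16 of the 19 (84.2%), against 37.5%. Among 20 DNA replication genes the shares were 20.0% and 60.0%. In the sequences below, capitals mark these 2 motifs. Ube2c is at chr2:164769679-164769928, Bub1b at chr2:118597961-118598210 and Prc1 at chr7:80294201-80294450, all on the plus strand. The Prc1 window holds no full CHR. It ends in tttga, and a CHR that crosses the end of a window was not counted for any gene.
Ube2c: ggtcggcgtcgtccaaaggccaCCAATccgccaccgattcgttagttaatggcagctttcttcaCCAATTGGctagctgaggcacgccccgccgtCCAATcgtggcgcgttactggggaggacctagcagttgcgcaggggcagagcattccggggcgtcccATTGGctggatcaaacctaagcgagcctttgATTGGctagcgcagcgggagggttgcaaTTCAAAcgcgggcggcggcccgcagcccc
Bub1b: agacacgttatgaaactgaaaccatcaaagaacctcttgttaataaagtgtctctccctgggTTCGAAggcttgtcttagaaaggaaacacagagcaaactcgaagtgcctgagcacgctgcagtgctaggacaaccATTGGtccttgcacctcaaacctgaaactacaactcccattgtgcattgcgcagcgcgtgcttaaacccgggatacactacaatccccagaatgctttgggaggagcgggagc
Prc1: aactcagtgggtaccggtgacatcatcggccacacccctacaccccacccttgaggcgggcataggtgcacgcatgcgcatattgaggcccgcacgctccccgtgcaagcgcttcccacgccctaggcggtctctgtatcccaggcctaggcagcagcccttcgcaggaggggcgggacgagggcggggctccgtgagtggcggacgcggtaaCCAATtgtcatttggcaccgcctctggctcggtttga
Ube2c held 1 CHR, read as TTCAAA on this strand, and 6 CCAAT matches over both strands, of which a pair overlap. Bub1b held 1 CHR and 1 CCAAT match, and Prc1 held 0 CHR and 1 CCAAT match. These motifs and the lists they were counted in were chosen after the expression values had been seen, and a match is no evidence of binding.

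Genes of DNA replication stood lower by less. Of 24 measured, 21 were negative, and 9 stood lower without overlap (20.3% of all genes). Nominally lower were 3 (3.3% of all genes) and nominally higher 0 (2.35%). The median difference was -0.15 (-0.13 without tamoxifen 2). Rrm2, the regulated subunit of ribonucleotide reductase, read 7.97 and 7.90 under tamoxifen and 7.29 and 7.19 under the combination (-0.70 ± 0.16). Fen1, the flap endonuclease that trims Okazaki fragments, stood 0.58 lower. Near 0, with overlapping groups, were the replicative helicase subunits Mcm6 (-0.04) and Mcm7 (0.01) and the sliding clamp Pcna (-0.04). Without tamoxifen 2 Mcm6 turned to 0.08 and Mcm7 to -0.07. The other Mcm subunits of the helicase stood lower, from -0.26 to -0.18, some of them without overlap. Against vehicle, 15 of the 24 replication genes had passed the adjusted test as higher under tamoxifen, beside 381 of all 22180 genes in either direction. The tamoxifen arrays enter both comparisons. Whether the replication and mitosis lists differ from each other was not tested.

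The second group was cholesterol synthesis. All 17 measured genes of a 22-gene sterol list stood lower in the combination, 15 without overlap (20.3% of all genes) and 13 nominally lower (3.3%), with a median of -0.74. Here the tamoxifen arrays themselves differed: leaving out tamoxifen 2 gave a median of -0.53, and leaving out tamoxifen 1 gave -0.95. The mean level over the list was 9.12 and 9.49 under tamoxifen and 8.58 and 8.53 under the combination, so the groups did not overlap. The vehicle arrays differed from each other by more than the tamoxifen arrays, at 8.50 and 9.02, and rapamycin arrays read 8.60, 8.49 and 8.29. For rapamycin against vehicle the list's median was -0.36, with 3 of 17 genes at an unadjusted p under 0.05 on the lower side (4.6% of all genes). No member was called in either comparison.

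Insig1, which holds the sterol sensor SCAP in the endoplasmic reticulum and is itself a target of SREBP, had the smallest p of all genes that stood lower. It read 10.85 and 11.14 under tamoxifen and 9.85 and 9.73 under the combination, a 2.31-fold difference (-1.21 ± 0.19, adjusted p = 0.635). Under rapamycin alone it read 9.96, 9.91 and 9.77, and under vehicle 10.12 and 10.58, so both groups given rapamycin lay below both groups without it. Lanosterol synthase (Lss) had the largest difference of the list, with 8.32 and 9.30 under tamoxifen against 7.50 and 7.32 (-1.40 ± 0.40). The sterol dehydrogenase Nsdhl (-1.15), the demethylase Cyp51 (-1.14) and the cholesterol carrier Stard4 (-1.09) each stood more than 2-fold lower. For all of these tamoxifen 2 was the higher tamoxifen array.

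The other members of the pathway stood lower by less than 2-fold, at early and late steps alike. Hmgcs1, which makes HMG-CoA, read 11.10 and 11.47 under tamoxifen and 10.62 and 10.54 under the combination (-0.71 ± 0.23). Squalene epoxidase (Sqle) stood at -0.74, farnesyl diphosphate synthase (Fdps) at -0.91, mevalonate decarboxylase (Mvd) at -0.87 and mevalonate kinase (Mvk) at -0.62. Among the late steps, the methylsterol oxidase Msmo1 stood at -0.74, Hsd17b7 at -0.41, the desaturase Sc5d at -0.345 and the sterol reductase Dhcr7 at -0.24. No test compared one step with another. Srebf2, the gene for the transcription factor that drives the pathway, showed almost no difference, with 9.90 and 9.76 against 9.83 and 9.78 (-0.03 ± 0.14), and 0.04 without tamoxifen 1. Pmvk was the list gene that passed the adjusted test for tamoxifen against vehicle (1.27, adjusted p = 0.00914). It stood at 8.76 and 8.60 under tamoxifen and 8.29 and 7.94 under the combination, still above all vehicle and rapamycin arrays.

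The promoters of Insig1, the sterol gene of smallest p, and Nsdhl are printed for the same reason as those above. Of 13 sterol genes with a promoter sequence, all 13 (100%) held CCAAT in the 250 bases upstream, against 37.5% of all genes with such a sequence. A core of the sterol regulatory element written as TCACNCCAC was found in 1 of 13 (7.69%), against 1.22% of all genes with such a sequence. Neither of the promoters shown holds that core. Insig1 is at chr5:28071162-28071411 and Nsdhl at chrX:72918271-72918520, both on the plus strand, and capitals mark CCAAT on either strand.
Insig1: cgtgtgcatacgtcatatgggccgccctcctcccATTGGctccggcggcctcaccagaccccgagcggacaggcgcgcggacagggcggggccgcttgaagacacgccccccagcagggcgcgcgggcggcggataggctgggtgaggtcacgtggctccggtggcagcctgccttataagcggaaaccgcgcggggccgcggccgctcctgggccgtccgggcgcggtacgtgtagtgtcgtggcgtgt
Nsdhl: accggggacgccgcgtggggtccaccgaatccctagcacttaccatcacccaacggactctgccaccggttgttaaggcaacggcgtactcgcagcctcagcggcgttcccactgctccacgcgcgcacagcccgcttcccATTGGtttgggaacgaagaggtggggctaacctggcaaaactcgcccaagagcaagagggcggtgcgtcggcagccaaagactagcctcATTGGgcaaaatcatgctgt
Insig1 held 1 match and Nsdhl held 2.

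Fatty acid synthesis genes, which share the SREBP family of regulators, stood lower by less, with a median of -0.37 over 13 genes (-0.33 without tamoxifen 2). Nominally lower were 3 (3.3% of all genes). The fatty acid desaturase Fads2 read 8.08 and 8.09 under tamoxifen and 7.54 and 7.60 under the combination (-0.52). Acetyl-CoA synthetase 2 (Acss2) stood at -0.45. For rapamycin against vehicle this list had a median of 0.21, of opposite sign, which was 0.009 with rapamycin 3 as the only rapamycin array. Its extreme member there was Scd1, the stearoyl-CoA desaturase, at 3.45 (adjusted p = 0.0678), beside -0.21 for the combination against tamoxifen. Scd1 read 8.06 and 7.28 under tamoxifen and 8.0 and 6.92 under the combination, so its groups overlapped, and the difference was 0.18 without tamoxifen 1. Scd1 is named because of its values. Markers of fat tissue, where Scd1 is abundant, also stood higher under rapamycin than under vehicle: 7 of 9 were positive, 5 of them at an unadjusted p under 0.05 (4.31% of all genes), with a median of 0.67. Their mean log2 level was 6.81 to 7.35 under rapamycin and 6.16 to 6.29 under vehicle, and the adipocyte hormone gene Adipoq stood at 2.54. The part of fat tissue in the Scd1 value was not tested. For the combination against tamoxifen the fat list had a median of 0.23, and 0 without tamoxifen 2.

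Among the parts of the mTORC1 pathway itself, 4 of 22 measured genes were nominally lower (3.3% of all genes) and 0 nominally higher (2.35%). The median was -0.08 (-0.03 without tamoxifen 2). Ddit4 (REDD1), a stress-induced inhibitor of mTORC1, read 7.64 and 7.73 under tamoxifen and 6.98 and 7.03 under the combination (-0.68 ± 0.16, adjusted p = 0.805). Eif4ebp1, the translation repressor that mTORC1 phosphorylates, read 7.86 and 8.14 against 7.60 and 7.66 (-0.37 ± 0.14). Sesn3, a sestrin that restrains the pathway, and the Rag GTPase Rragd stood at -0.43 and -0.45. The groups did not overlap for any of these 4 genes. The kinase gene Mtor read 8.21 and 8.33 under tamoxifen and 8.52 in both combination arrays (0.25 ± 0.16), and 8.96 and 9.05 under vehicle. Rptor (-0.23), Rictor (0.05), Rheb (-0.20), Tsc1 (-0.23), Tsc2 (-0.09) and Fkbp1a, which encodes the FKBP12 partner of rapamycin (0.12), had no nominal difference. Without tamoxifen 2 Rheb turned to 0.19 and Tsc2 to 0.03, and without tamoxifen 1 Rictor turned to -0.22. The arginine sensor Castor1 stood at 0.81 for rapamycin against vehicle but at 0.21 here, with 5.44 and 5.57 under tamoxifen and 5.60 and 5.83 under the combination. Rps6kb1, the gene for S6 kinase 1, was not analysed here. The arrays measure transcripts, not the phosphorylation by which mTORC1 acts.

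Transcripts of processes that mTORC1 is known to promote were mixed. Of 24 ribosome biogenesis genes, 5 were nominally lower and 1 higher, beside 3.3% and 2.35% of all genes (median -0.23, or -0.11 without tamoxifen 2). Nop2, a nucleolar methyltransferase, stood at -0.61 (-0.38 without tamoxifen 2), and Ppan, a large-subunit assembly factor, at 0.55. The 21 cytosolic ribosomal protein genes had a median of -0.07 that turned to 0.09 without tamoxifen 2. Of them 0 were nominally lower and 1 higher, Rpl22 (0.51, or 0.22 without tamoxifen 2). In the list of ATF4 targets with serine, glycine and amino acid genes, 6 of 20 were nominally lower, beside 3.3% of all genes (median -0.30, or -0.20 without tamoxifen 2). Psat1, an enzyme of serine synthesis, read 7.31 and 7.25 under tamoxifen and 6.66 and 6.34 under the combination (-0.78 ± 0.20). Shmt2, the mitochondrial serine hydroxymethyltransferase, read 9.02 and 9.06 against 8.59 and 8.54 (-0.47 ± 0.14).

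Glycolysis and chaperone lists had negative medians that were smaller without tamoxifen 2. Of 15 glycolysis and hypoxia genes, 4 were nominally lower (3.3% of all genes), with a median of -0.28 (-0.16 without tamoxifen 2). They were led by the phosphofructokinase Pfkp (-0.69 ± 0.15) and triose phosphate isomerase Tpi1 (-0.37). Of 15 genes of protein folding in the endoplasmic reticulum, 6 were nominally lower and 1 higher, with a median of -0.37 that was -0.13 without tamoxifen 2. The lectin chaperone Calr stood at -0.51 in that list (-0.27 without tamoxifen 2). Heat shock genes had a median of -0.34 (-0.28 without tamoxifen 2) with 3 of 10 nominally lower, among them the mitochondrial chaperonin Hspd1 (-0.54). Of 23 autophagy and lysosome genes, 8 stood lower without overlap and 5 higher, beside 20.3% and 16.1% of all genes. The nominally lower ones were 2, the cathepsin Ctsl (-0.59) and the sialidase Neu1 (-0.48), and the median of -0.12 was -0.006 without tamoxifen 2. Respiratory chain genes had 0 of 15 nominal in either direction (median -0.22, or -0.05 without tamoxifen 2).

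**Figure D3:**
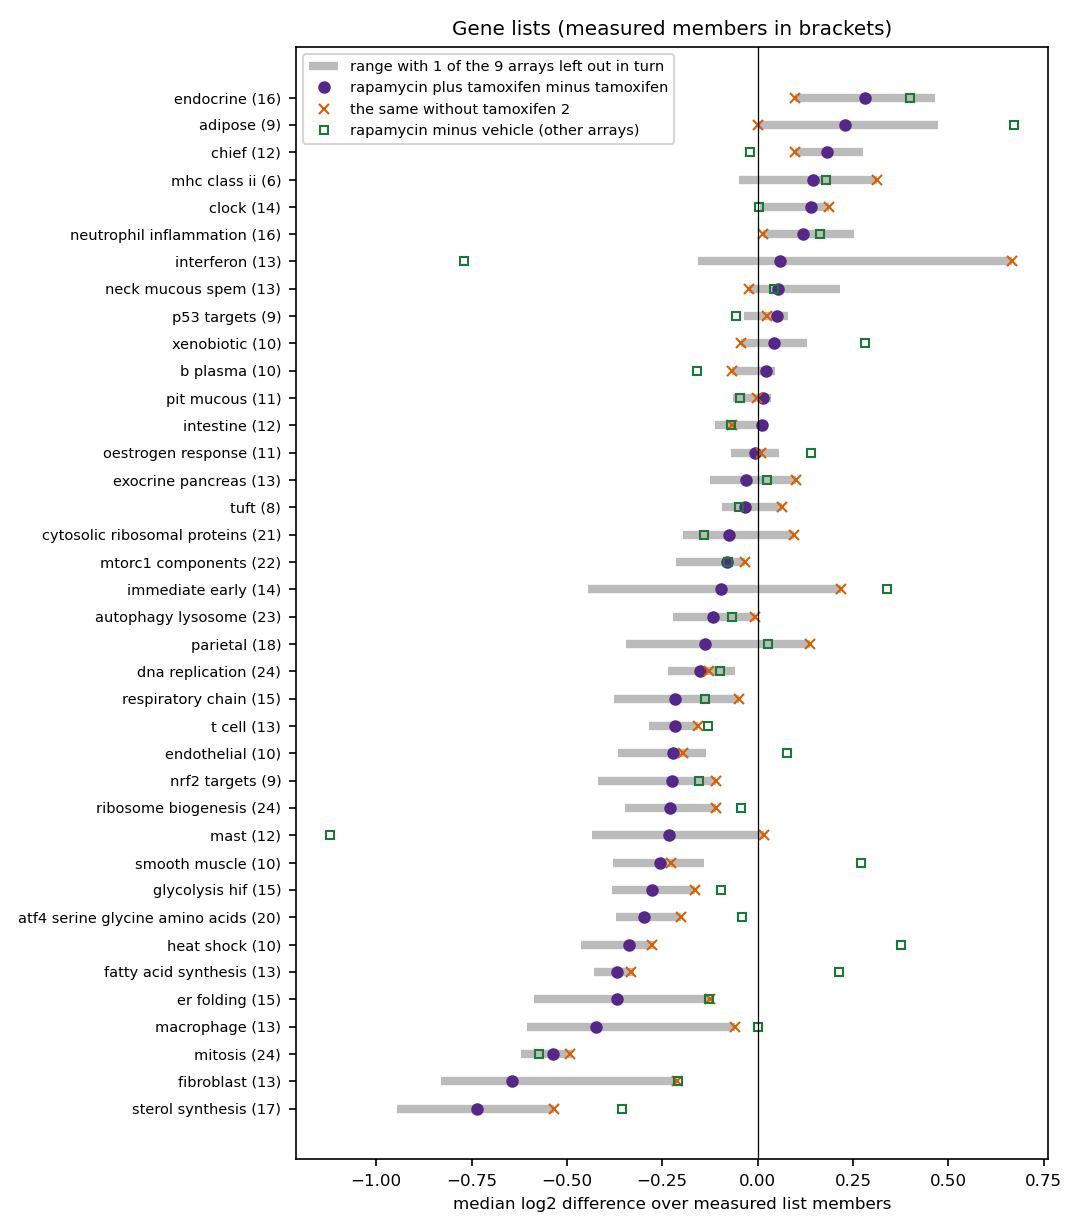
Median log2 difference over the measured members of each gene list, for rapamycin plus tamoxifen minus tamoxifen (purple), the same without tamoxifen 2 (orange crosses), the range with each of the 9 arrays left out in turn (grey bars) and rapamycin minus vehicle (green squares). The list of squamous genes, at 1.57, the single blood gene and the genes called for rapamycin against vehicle are not drawn. Sterol synthesis, fibroblast and mitosis lie lowest, and of these the grey bar is shortest for mitosis (-0.62 to -0.49).

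Genes of smallest p on the higher side included a tissue kallikrein, a metabolic kinase and a gut hormone. Klk1, the kallikrein that releases kinin peptides, read 7.91 and 7.84 under tamoxifen and 9.72 and 9.48 under the combination, a 3.29-fold difference (1.72 ± 0.21). It read 8.76 and 9.07 under vehicle and 10.03, 9.55 and 10.10 under rapamycin, so rapamycin arrays were higher with and without tamoxifen. The related Klk1b5 followed the same pattern (1.28 ± 0.23), but the 2 genes are close paralogs and their probe sets may not tell them apart. Pdk4, which restrains pyruvate dehydrogenase when fatty acids are burned, read 7.90 and 7.94 under tamoxifen, 8.92 and 8.96 under the combination, 8.16 and 7.89 under vehicle, and 8.49, 8.42 and 8.59 under rapamycin. Its difference was 1.02 ± 0.14 (adjusted p = 0.488), and no group given rapamycin overlapped a group without it.

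Gast, which encodes the acid-stimulating hormone gastrin of antral G cells, had the largest difference of the 20 genes of smallest p without overlap. It read 6.48 and 6.00 under tamoxifen and 9.73 and 9.08 under the combination, a difference of 3.16 ± 0.55 (8.97-fold, adjusted p = 0.781). Under vehicle it read 6.46 and 6.42, and under rapamycin 8.30, 6.28 and 6.71. The combination arrays stood above all others, and 1 rapamycin array stood apart from the remaining pair. Without rapamycin 1 the shared spread was smaller and Gast passed the test (adjusted p = 0.0486); with the other arrays left out it did not. The labels do not say how much antrum each sample held.

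The non-coding transcript G630018N14Rik read 3.82 and 4.97 under tamoxifen, 6.76 and 6.43 under the combination, 5.61 and 5.72 under vehicle, and 7.11, 7.34 and 7.28 under rapamycin. Its difference was 2.20 ± 0.31 (adjusted p = 0.488). Without tamoxifen 2 it was 2.77 and passed the test (adjusted p = 0.00975), the gene called in that setting. Sectm1b (1.10), a secreted and membrane protein gene, and Igfbp6 (0.76), which binds insulin-like growth factor II, were also higher under rapamycin than under vehicle (0.94 and 0.85). Igfbp6 read 6.28 and 6.59 under tamoxifen and 7.22 and 7.17 under the combination. Macrod1 (0.82), a mono-ADP-ribose hydrolase, stood lower under tamoxifen than under vehicle (-0.94, adjusted p = 0.0245), a comparison that shares the tamoxifen arrays. Its combination arrays, at 7.95 and 8.0, were close to the vehicle arrays at 8.11 and 8.08. A830082N09Rik (0.98) and the microRNA locus Mir19a (0.74) completed the 10, and both were dim. A830082N09Rik read 3.55 and 3.79 under tamoxifen and 4.84 and 4.47 under the combination. Mir19a read 2.96 and 2.88 against 3.58 and 3.74.

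Genes of smallest p on the lower side, after Insig1, included several that stood higher under tamoxifen than under vehicle. Both comparisons use the same 2 tamoxifen arrays, so genes picked for high values there are favoured to pass against vehicle. Of all 22180 genes, 381 passed against vehicle in either direction. Guca2b, which encodes the gut peptide uroguanylin, read 7.04 and 7.78 under tamoxifen, 5.98 and 6.15 under the combination, 5.34 and 5.18 under vehicle, and 5.22, 5.26 and 5.38 under rapamycin. It stood 2.54-fold lower in the combination (-1.34 ± 0.22, adjusted p = 0.739) and had passed the test for tamoxifen against vehicle (2.15, adjusted p = 0.0065). The combination lay between tamoxifen and the groups without it. Tlr1, a receptor for bacterial lipopeptides (-0.95), the membrane protein Tm4sf5 (-0.81) and Arhgap19, a RhoA regulator of dividing cells (-0.72), likewise passed as higher under tamoxifen against vehicle (0.88, 1.38 and 1.15). For Tlr1 the combination arrays, at 5.41 and 5.33, lay within the vehicle range of 5.30 to 5.58.

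Mfsd2a, a transporter of lysophosphatidylcholine, read 8.27 and 8.77 under tamoxifen and 7.63 and 7.46 under the combination (-0.98 ± 0.19). Ctsc, the lysosomal protease cathepsin C, read 9.38 and 9.71 against 8.55 and 8.73 (-0.90 ± 0.18). C1s2, a complement protease gene, was dim on all arrays, at 2.76 and 3.04 under tamoxifen and 2.06 and 2.18 under the combination. Actg2, the enteric smooth muscle actin, read 11.06 and 11.00 under tamoxifen but 10.31 and 10.23 under the combination (-0.76 ± 0.15). Vehicle (11.11 and 10.78) and rapamycin alone (11.25, 11.18 and 11.18) were both higher than the combination, so Actg2 was low in that group and in no other.

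**Figure D4:**
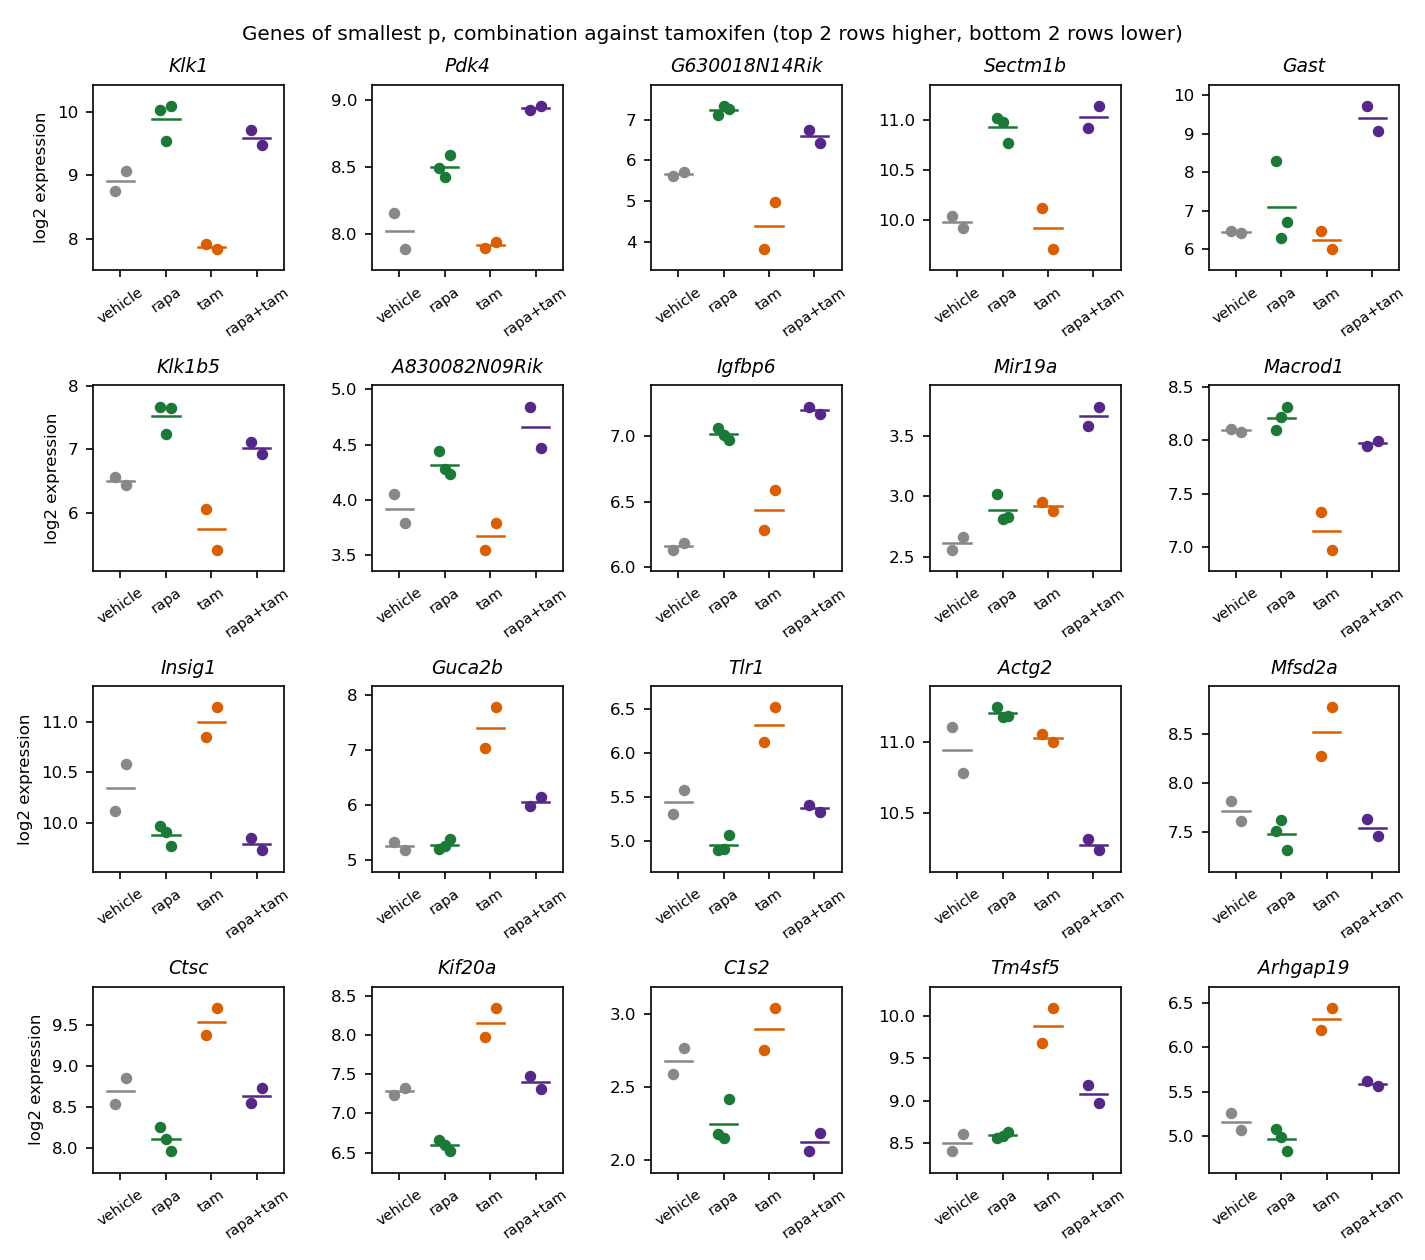
Log2 expression of the 20 genes of smallest p whose combination and tamoxifen arrays do not overlap, with 1 point per array and a bar at the group mean, and a separate y axis for each gene that does not start at 0 (rapa, rapamycin; tam, tamoxifen). The upper 10 stood higher and the lower 10 lower in the combination; Klk1, Pdk4 and G630018N14Rik are also higher under rapamycin than under vehicle, whereas Gast and Actg2 set the combination apart from all other groups.

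The genes that rapamycin changed without tamoxifen were followed into the injured stomach. Against vehicle, 11 genes (0.0496%) passed the adjusted test, 2 higher and 9 lower. The count was 4 with the squamous level as a covariate, 3 without vehicle 2, 4 without rapamycin 1 and 20 without either tamoxifen array. All 11 had the same sign for the combination against tamoxifen, and 2 were nominally higher and 5 nominally lower. Their differences were smaller, with a median of -0.34 (-0.22 without tamoxifen 2) beside -1.58 for rapamycin against vehicle. They were chosen for their difference against vehicle, so a smaller difference on other arrays is by itself no finding. The interaction compares the 2 differences, but it contains the difference against vehicle, so for these 11 genes it carries the same selection. Of 22180 genes 0 passed it (smallest adjusted p = 0.223), with 627 genes (2.83%) at an unadjusted p under 0.05.

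Atp6v0d2, a subunit of the lysosomal proton pump, fell by 4.63 log2 units under rapamycin alone, from 8.0 and 8.92 under vehicle to 4.21, 3.70 and 3.59. It read 8.71 and 8.08 under tamoxifen and 7.46 and 7.42 under the combination (-0.95 ± 0.33). The groups did not overlap in either comparison, and the combination stayed far above the rapamycin arrays (interaction 3.68 ± 0.45, adjusted p = 0.223). Pla2g4c, a cytosolic phospholipase, fell from 9.26 and 10.01 to 6.16, 6.26 and 6.11 under rapamycin, and read 8.29 and 8.49 under tamoxifen against 7.78 and 7.07 under the combination (-0.96 ± 0.28). Its interaction was 2.49 ± 0.38 (adjusted p = 0.592).

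St3gal4, a sialyltransferase, was already low once tamoxifen was given. It read 8.46 and 8.86 under vehicle, 6.05, 5.97 and 5.76 under rapamycin, 6.86 and 6.70 under tamoxifen, and 6.44 and 6.04 under the combination. The difference of tamoxifen from vehicle was -1.88 (adjusted p = 0.0065), and that of the combination from tamoxifen -0.54 ± 0.20. The mast cell proteases that rapamycin alone lowered did likewise. Mcpt1 read 9.49 and 10.23 under vehicle, 5.71, 4.58 and 5.91 under rapamycin, 6.64 and 7.25 under tamoxifen, and 6.60 and 6.53 under the combination (-0.38 ± 0.43). Mcpt2 (-0.34), Mcpt-ps1 (-0.31) and the tryptase Tpsb2 (-0.04) had overlapping groups or differences within 2 standard errors. The sign of Mcpt2 turned without tamoxifen 2 (0.13) and that of Tpsb2 without combination 1 (0.09). Il31ra, a cytokine receptor subunit, stood at -0.31, and Lypd8, a secreted antibacterial protein of the gut, at -0.47.

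Both genes that rapamycin raised alone stood higher in the combination. Per1, a repressor of the circadian clock, read 8.12 and 8.06 under tamoxifen and 8.90 and 8.80 under the combination (0.76 ± 0.16), beside 7.63 and 7.50 under vehicle and 8.71, 9.08 and 8.69 under rapamycin. Chst4, a sulfotransferase, read 5.04 and 5.23 against 5.87 and 5.59 (0.60 ± 0.24), and 2.21 was its difference without tamoxifen. In the clock list, Per1 and Nr1d1 (0.63) were the 2 of 14 genes that were nominally higher, and the median was 0.14 (0.19 without tamoxifen 2). The labels do not state the time of day at which stomachs were taken.

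**Figure D5:**
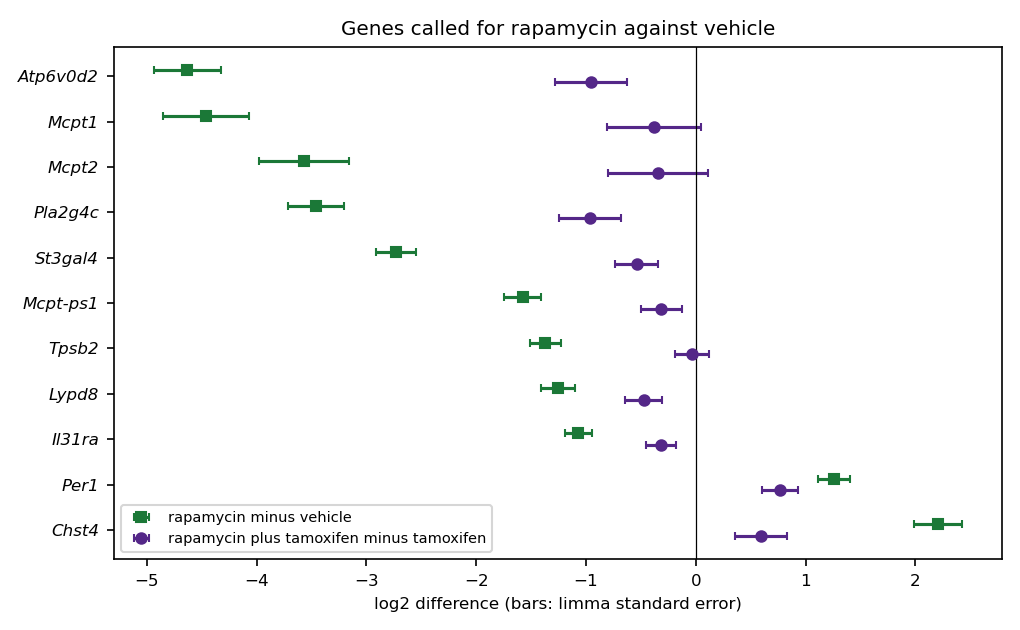
Log2 difference of the 11 genes that passed the adjusted test for rapamycin against vehicle (green squares), beside their difference between rapamycin plus tamoxifen and tamoxifen (purple circles), with limma standard errors as bars. All purple circles lie on the same side of 0 as the green squares and nearer to it, for example -0.95 against -4.63 for Atp6v0d2.

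Markers of the gastric gland showed small differences. Of 18 parietal-cell genes, 0 were nominal in either direction, and the median of -0.14 turned to 0.14 without tamoxifen 2. Their mean level was 9.23 and 9.70 under tamoxifen and 9.28 and 9.46 under the combination, against 10.30 and 10.38 under vehicle. Of 12 chief-cell genes 2 were nominally higher, beside 2.35% of all genes (median 0.18, or 0.10 without tamoxifen 2). Cblif read 11.19 and 11.30 under tamoxifen and 11.76 and 11.62 under the combination (0.44 ± 0.13), and Bhlha15 (MIST1), the secretory-cell transcription factor, 6.15 and 6.25 against 6.62 and 6.75 (0.48 ± 0.20). Both had passed as lower under tamoxifen against vehicle (-1.60 and -1.21), a comparison that shares the tamoxifen arrays.

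Mucous neck and metaplasia markers were divided. Tff2, the trefoil peptide after which the metaplasia is named, read 11.80 and 12.56 under tamoxifen and 12.98 and 12.90 under the combination (0.76 ± 0.24), and its difference was 0.37 without tamoxifen 1. Sox9, a transcription factor of neck cells, stood at 0.37. Over the list, differences on the higher side reached 1.28. On the other side, 6 of the 13 genes were negative, down to the progenitor marker Olfm4 at -1.02, which was -0.024 without tamoxifen 2. The list's median of 0.05 turned to -0.024 without tamoxifen 2, and 3 of 13 were nominally higher and 0 nominally lower. In the endocrine list 3 of 16 were nominally higher: Gast, Cck (0.42) and the hunger hormone gene Ghrl, which read 11.94 and 11.47 under tamoxifen and 12.18 and 12.50 under the combination. The list's median of 0.28 was 0.10 without tamoxifen 2. Pit mucous, tuft, intestinal and exocrine pancreas lists had medians between -0.03 and 0.01 (-0.07 to 0.10 without tamoxifen 2). Nominally higher (2.35% of all genes) were 1 of 11 pit mucous genes, Foxq1 (0.51), and 1 of 8 tuft genes, Sh2d6 (0.76). So was 1 of 13 exocrine pancreas genes, Cela1 (0.91). Nominally lower (3.3% of all genes) was 1 of 12 intestinal genes, Fabp1 (-0.82).

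Some stromal and immune lists moved with the array that stood apart. Of 13 fibroblast genes, 7 were nominally lower (3.3% of all genes), and the median of -0.65 was -0.21 without tamoxifen 2. The collagen gene Col1a1 read 10.10 and 10.75 under tamoxifen and 9.39 and 9.66 under the combination (-0.90 ± 0.24, or -0.57 without tamoxifen 2), and Col1a2 stood at -0.75. Macrophage genes had a median of -0.42 (2 of 13 nominally lower) that was -0.06 without tamoxifen 2. Interferon-stimulated genes had a median of 0.06 that was 0.67 without tamoxifen 2, with 0 of 13 nominal, beside -0.77 for rapamycin against vehicle. Endothelial genes (median -0.22, or -0.20 without tamoxifen 2) and T cell genes (-0.22, or -0.16) moved less. Smooth muscle genes had a median of -0.26 that was -0.23 without tamoxifen 2 but ranged from -0.38 without combination 1 to -0.14 without combination 2. All 10 were negative and 3 nominally lower, with Des, the muscle intermediate filament, at 10.54 and 10.98 under tamoxifen and 10.25 and 9.89 under the combination. Under rapamycin alone their median was 0.27.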

How the data were processed

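Per the labels' protocols, total RNA of whole stomach (RNeasy, integrity read on a Bioanalyzer) was amplified by RiboAmp HS before labelling with an Enzo kit. The authors deposited log2 expression values per probe set, made with RMA in Partek per the submitters' processing notes; versions, settings and the array's build were not stated there. Of 41345 probe sets, 23521 had 1 gene symbol in the platform annotation, 1814 several and 16010 none; 23328 were matched to RefSeq (GRCm38.p6) for names and 0 symbols changed. Where a gene had several probe sets (1082 of 22180 genes), the one with the highest mean across the 9 arrays was kept, without a filter on dim genes. Array medians lay between 4.95 and 5.09. The number of arrays limits the precision. The 2 arrays of separated cells were not used here.

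limma 3.58.1 in R 4.3.3 fitted 1 mean per group and 1 shared spread over the 9 arrays (5 residual degrees of freedom, prior 3.86), with Benjamini-Hochberg adjustment over all genes and a call at an adjusted p under 0.05. The code was tested on simulated data. Errors after ± are limma standard errors. Gene lists (41 lists, 567 of 623 entries measured, 1 through a synonym) were described by counts and medians, with no set test. The genes named were the 10 of smallest p without overlap in each direction (no gene was called), the rapamycin-called list and the 4 smallest interaction p. The 2 members of smallest p per list and members of the squamous and mTORC1 lists could also be named, but not all were. Not discussed, for example, were Cyp2c55 (1.21) and Myc (0.91), nominally higher, and Saa3 (-0.90), Cyp3a11 (-0.66) and Srxn1 (-0.575), nominally lower. Other list members were named after their values were seen. The members and lists were chosen with earlier results of these data known. Alternatives were other scalings, probe set and dim-gene rules, a trend and robust fit, only the groups compared, a squamous covariate, the replicate number as a block and each array left out. Replicate numbers were not taken as pairs: deviations of same-numbered arrays from their group means correlated between -0.11 (tamoxifen with combination) and 0.56 (vehicle with tamoxifen), and the labels tie no numbers to an animal or day.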

Additional observations from a re-analysis of the deposited data

How the results depend on the processing

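For the combination against tamoxifen the count of genes passing limma's adjusted test was 0 in all settings except without tamoxifen 2 (1, G630018N14Rik) and without rapamycin 1 (1, Gast), so leaving out single arrays gave 0 to 1. A group left with 1 array was assumed to vary like the others. For rapamycin against vehicle the count of 11 became 7 with only the groups compared, 4 with the squamous covariate, 3 to 20 with single arrays left out, and 0 without tamoxifen 2, rapamycin 1 and rapamycin 2 together. That last setting and the crossed replicate numbers were chosen after seeing the data. The replicate block gave 0 calls for the combination against tamoxifen (1438 genes at an unadjusted p under 0.05), 8 for rapamycin against vehicle and 1 for the interaction, Scd1, named after its value was seen. With crossed replicate numbers the counts of calls were 0 for the combination against tamoxifen, 0 for rapamycin against vehicle and 0 for the interaction. The cause of these shifts was not tested. Of 375 values for the 20 genes of smallest p, 373 kept direction and side of the threshold. Signs turned for Igfbp4 (0.008 without tamoxifen 2, with or without the 2 rapamycin arrays, and -0.280 to 0.008 over single arrays), Slc4a1 (-0.024 without tamoxifen 1, and up to 0.131), Mcpt2 (0.133 without tamoxifen 2, again in both settings, and -0.821 to 0.133), Tpsb2 (0.091 without combination 1, and -0.167 to 0.091), Atp4a (0.142), Sprr3 (-0.738), Rheb (0.193) and Tsc2 (0.026), the last 4 without tamoxifen 2, with or without the 2 rapamycin arrays. Over single arrays Atp4a ranged from -0.492 to 0.142, Sprr3 from -0.738 to 6.803, Rheb from -0.583 to 0.193, Tsc2 from -0.215 to 0.026, Rictor from -0.217 to 0.313, Scd1 from -0.750 to 0.331 and Srebf2 from -0.095 to 0.037. Genes near 0 turned under more settings: Mcm6 with quantile normalization (0.040), the squamous covariate (0.013), the 3 arrays left out (0.082) and single arrays (-0.157 to 0.082), Mcm7 with median centring (-0.023), the covariate (-0.057), the 3 arrays (-0.068) and single arrays (-0.100 to 0.125), and Pcna (0.058) and Srebf2 (0.067) with quantile normalization. These covered 150 genes, the text's genes among them. Of 777 list medians, 82 moved by more than 1 SD between arrays. Single probe sets gave counts only, and the interaction was not run on only the groups compared, which are all 4. Signal over background was not stated by the sources.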
